A study of Homo sapiens with 12 samples.

Results

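The lysosome genes examined here are 41 symbols taken as rows of the count table: the 4 transcription factors of the MiT/TFE family (TFEB, TFE3, TFEC and MITF), 15 genes of the lysosomal proton pump (V-ATPase), 5 lysosomal membrane proteins, 8 cathepsins and other peptidases, and 9 glycosidases, sulfatases, lipases or activators. The table had 55765 rows, and all 41 symbols were among them. Of these, 39 passed the filter on low counts and were tested, within 11474 genes tested in all. The rule names symbols and uses no measured value, but the members were chosen with earlier results of these data known.

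RNA was sequenced from OCI-AML2, a human acute myeloid leukaemia cell line grown as single-cell clones in which doxycycline switches on a MEF2C construct (MEF2C is a MADS-box transcription factor of myeloid and muscle cells). The construct encoded either wild-type MEF2C (WT) or the S222A mutant, in which a serine is replaced by alanine. There were 4 groups of 3 libraries: WT uninduced and S222A uninduced cells received vehicle, and WT induced and S222A induced cells received 600 ng of doxycycline, all for 48 h in 3 ml. All 4 groups therefore shared the line and a MEF2C construct, and doxycycline-treated cells without a construct were not analysed here. How many clones carried each construct is not stated, so a difference between the lines cannot be told apart from a difference between clones. Whether replicates were separate cultures is not stated in the labels, so the p-values reflect only how far these samples spread, and that spread may be technical. The series title concerns MEF2C phosphorylation and chemotherapy resistance.

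Lysosomes are acidic compartments that degrade proteins, glycans and lipids delivered by endocytosis and autophagy. The V-ATPase acidifies them, and soluble hydrolases such as cathepsins and glycosidases work at that low pH. TFEB, TFE3, MITF and TFEC are related basic helix-loop-helix leucine zipper factors. When the kinase complex mTORC1 is inactive, TFEB and TFE3 move to the nucleus and activate lysosomal and autophagy genes through E-box motifs in their promoters. In myeloid cells the family is also known for its part in macrophage and osteoclast differentiation.

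The E-box core CACGTG and the related M-box TCATGTG are the motifs through which this family is known to bind. They were searched on both strands in RefSeq promoter windows of 300 bases (250 before and 50 after the start; GRCh38.p14). A CACGTG also lies within every TCACGTG, so these counts overlap. Of the 41 genes, 30 had a window, with 41 windows in all. CACGTG was present in 12 of the 41 windows (29.3%), against 7.26% of 35116 promoter windows of all genes. TCACGTG was in the same number of member windows (12, 29.3%), against 3.71% of all windows. TCATGTG was in 4 member windows (9.76%), against 2.92%. The MEF2 element, the AT-rich site of MEF2 factors, was in 0 of 41 member windows and in 1.86% of all windows. The stretches shown first, from before the start of 5 genes, hold 2 or more E-boxes each. CLN3 also had 2, and LAMP1 2 more near its start. In each pair 1 box lies before the start and 1 runs across or lies past it, and these are not shown. In the stretches, CACGTG or TCATGTG (or its reverse complement) is in capitals, and each is written 5′ to 3′ on the gene's strand.
LAMP1 (chr13:113297044-113297103, plus strand): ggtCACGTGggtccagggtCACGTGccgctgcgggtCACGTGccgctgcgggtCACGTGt
MCOLN1 (chr19:7522579-7522623, plus strand): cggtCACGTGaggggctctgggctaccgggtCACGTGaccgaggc
CTSA (chr20:45891290-45891334, plus strand): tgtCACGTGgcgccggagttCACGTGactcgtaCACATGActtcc
GAA (chr17:80101501-80101560, plus strand): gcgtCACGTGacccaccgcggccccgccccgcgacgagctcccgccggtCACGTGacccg
ATP6V0B (chr1:43974899-43974929, plus strand): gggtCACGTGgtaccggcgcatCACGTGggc
The next stretches lie just before the start of the 4 genes with a window that passed a test below, and are shown because none of their windows held CACGTG. TPP1 had 2 M-boxes there, and TFEC had 2 windows.
TPP1 (chr11:6619423-6619462, minus strand): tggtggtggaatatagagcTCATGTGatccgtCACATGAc
ATP6V0A1 (chr17:42458838-42458877, plus strand): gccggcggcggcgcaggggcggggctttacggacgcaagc
CTSZ (chr20:59007255-59007294, minus strand): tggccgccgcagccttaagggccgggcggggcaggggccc
TFEC (chr7:116030764-116030803, minus strand): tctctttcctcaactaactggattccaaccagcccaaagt
TFEC (chr7:115968310-115968349, minus strand): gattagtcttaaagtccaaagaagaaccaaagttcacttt
A motif match describes the letters of a window and is not evidence of binding.

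The libraries held between 875710 and 13134791 counts each, and the deepest library of each group (WT uninduced replicate 2, WT induced replicate 1, S222A uninduced replicate 1 and S222A induced replicate 3) differed from the other 8 in many genes. S222A uninduced replicate 3 had the fewest counts of its group (930960), and values without it are given for several genes below. MEF2C itself stood at 645 to 817 CPM (the counts of a gene as a share of the library's, scaled by TMM factors) in WT uninduced, 674 to 844 in WT induced, 605 to 802 in S222A uninduced and 786 to 956 in S222A induced libraries. Its change on induction passed the test in neither line (log2 0.08 ± 0.16 SE, adjusted p = 1.00 in WT; log2 0.34 ± 0.16 SE, adjusted p = 0.285 in S222A; edgeR), and the 1 MEF2C row cannot tell construct from endogenous transcripts. Of the myeloid line markers, PTPRC and CD33 were present in every library (at least 516 and 27.5 CPM), while CD34 stood at 0.41 CPM or less. The macrophage markers MRC1, FCGR3A and CD68 were at 0 in every library, while the 10 monocyte and macrophage markers summed to 18.0 to 31.9 CPM. CSF1R and FCGR1A of that list passed the filter on low counts. T cell, B cell and erythroid marker lists summed to at most 1.73, 3.91 and 0.223 CPM. Fibroblast, melanocyte and osteoclast lists summed to at most 3.46, 5.75 and 2.68 CPM, and the 3 epithelial markers to 12.4 to 37.2 CPM. The 9 myeloid line markers summed to 786 to 999 CPM.

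Among the transcription factors, TFEC fell on induction of S222A MEF2C, and no other factor passed the test in any of the 5 comparisons. TFEC, the family member known mainly from macrophages, stood at 6.25, 8.62 and 12.05 CPM in S222A uninduced replicates 1 to 3 and at 2.77, 3.12 and 0.877 CPM in S222A induced replicates 1 to 3. All 3 uninduced libraries were above all 3 induced libraries. The fold was 4.07 lower (log2 -2.02 ± 0.49 SE; 95% interval of the induced to uninduced ratio 0.118 to 0.513; edgeR adjusted p = 0.0358, n = 3 per group). These values rest on few reads, with 52, 21 and 11 counts in the uninduced and 8, 14 and 11 in the induced libraries. Leaving out any of the 6 libraries ended the call, with adjusted p between 0.0607 and 0.115 and log2 between -2.42 and -1.49, as did a fit on these 6 libraries alone (adjusted p = 0.0633) and one without the deepest library of each group (0.0746). Without S222A uninduced replicate 3 it was log2 -1.82 (adjusted p = 0.0859).

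The 3 uninduced WT libraries held 2.02, 2.90 and 3.68 CPM of TFEC, and the 3 induced ones 1.75, 1.12 and 1.84 CPM. These groups did not overlap either, but with counts of 1 to 15 per library, the lowest of them in WT induced replicate 2 and under the floor of 3 counts, the change of log2 -0.76 ± 0.56 SE did not pass (edgeR adjusted p = 1.00). The uninduced S222A libraries were all above the uninduced WT libraries, and this difference also did not pass (log2 1.53 ± 0.50 SE, edgeR adjusted p = 0.405). The S222A effect was not shown to differ from the WT effect: the difference was log2 -1.27 (95% interval -2.88 to 0.35, edgeR adjusted p = 0.857). After induction the lines overlapped, at log2 0.27 ± 0.56 SE for S222A minus WT.

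MITF, a factor known from melanocytes, osteoclasts and mast cells, was at 4.56, 5.34 and 13.1 CPM in S222A uninduced and at 3.12, 3.79 and 3.43 CPM in S222A induced libraries. The groups did not overlap, yet the highest uninduced value came from replicate 3, with 12 counts. The change was log2 -0.93 ± 0.42 SE (edgeR adjusted p = 0.248), and -0.50 without that library (adjusted p = 0.522). In the WT line MITF was at 6.06, 5.02 and 8.99 CPM uninduced and 7.02, 10.1 and 10.8 CPM induced, a log2 change of 0.46 ± 0.39 SE (adjusted p = 1.00). The 3 S222A induced libraries were thus below the 3 WT induced libraries, at log2 -1.38 ± 0.40 SE (edgeR adjusted p = 0.0564), just outside the threshold. DESeq2 gave an adjusted p of 0.0295 for the same difference, and leaving out 1 library at a time gave edgeR values between 0.0523 and 0.199. In edgeR it passed without the deepest library of each group (adjusted p = 0.0477) and from the compared libraries alone (0.0471). A term for the deepest library of each group gave 0.00527. It did not pass in edgeR under other scalings, without the filter or with a replicate block.

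TFEB, the main regulator of lysosome biogenesis, showed no change that passed. It stood at 10.1, 13.5 and 10.2 CPM in WT uninduced, 14.6, 14.6 and 12.9 in WT induced, 12.4, 8.21 and 20.8 in S222A uninduced and 15.9, 16.1 and 16.1 CPM in S222A induced libraries. The induced S222A libraries had an SD of 0.0878 CPM around a mean of 16.0, whereas the uninduced ones spread over more than the whole range of the other groups. The 95% interval of the S222A change ran from log2 -0.28 to 0.92 around 0.32, and that of the WT change from -0.32 to 0.90 around 0.29. TFE3, which shares many targets with TFEB, was at 4.04, 14.1 and 7.35 CPM in WT uninduced and 11.5, 6.73 and 6.05 in WT induced libraries. It was at 15.1, 9.03 and 13.1 CPM in S222A uninduced and 11.1, 11.4 and 16.9 in S222A induced libraries. In each of the 4 groups the deepest library held the highest TFE3 value. The induction effects were log2 -0.08 in WT and 0.08 in S222A cells (edgeR adjusted p = 1.00 and 0.950).

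**Figure D1:**
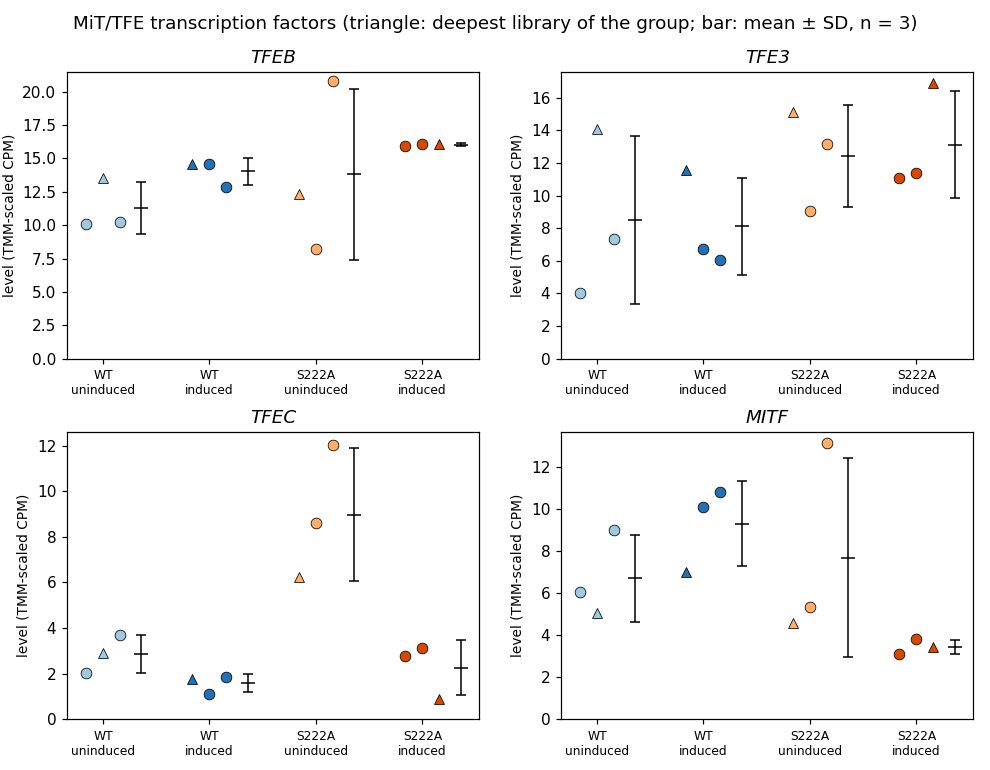
Level of the 4 MiT/TFE factors in each library, in TMM-scaled CPM on linear axes from 0, by group; triangles mark the deepest library of a group and bars the mean ± SD (n = 3). TFEC is at 6.25 to 12.05 CPM in S222A uninduced and at 0.877 to 3.12 CPM in S222A induced libraries, while the 3 TFEB values of S222A induced cells lie on top of each other near 16.0 CPM.

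Of the 39 genes tested, 0 were called (edgeR Benjamini-Hochberg adjusted p under 0.05 over all genes tested) on induction of WT MEF2C, 3 on induction of S222A MEF2C, 4 between the induced lines and 1 between the uninduced lines. In the WT line 1 gene of 11474 was called (0.00872%), so the WT count can be read against almost no calls at all. On WT induction the groups did not overlap for 0 members that were higher and 1 (TFEC) that was lower, where 2.81% and 2.98% of all genes were so. None of the 39 reached an unadjusted p under 0.05 there either, against 1.21% of all genes higher and 0.488% lower, and DESeq2 also called 0. The median log2 change was -0.05, against 0.01 over all genes tested, with a range from -0.76 (TFEC) to 0.46 (MITF). On S222A induction 511 genes were called (4.45%): 321 higher (2.80%) and 190 lower (1.66%). The 3 members called (2 higher, 1 lower) are 3 of 39, close to the background of all genes, and are not read as a result about the set. At an unadjusted p under 0.05 the members held 5 higher and 3 lower, where all genes had 9.85% and 9.26%. The median over the members was log2 0.15, against 0.01 over all genes, with 25 above 0 and 14 below, and it was log2 0.025 without S222A induced replicate 3. Groups did not overlap for 7 members that were higher and 2 that were lower, where 14.4% and 13% of all genes were so.

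CTSB and ATP6V1H rose on S222A induction. CTSB encodes cathepsin B, a lysosomal cysteine protease. It was at 70.2, 62.0 and 58.0 CPM in S222A uninduced libraries and at 118, 118 and 140.1 CPM in S222A induced libraries. In the WT line it was at 40.4, 51.6 and 46.2 CPM uninduced and 55.5, 49.3 and 46.3 CPM induced. The 3 S222A induced libraries were above the other 9, and the WT groups overlapped. The S222A change was 1.97-fold (95% interval 1.56 to 2.49; log2 0.98 ± 0.16 SE; edgeR adjusted p = 0.00403). It was log2 0.99 between the deepest libraries and 0.97 among the others, and every fit that left out 1 library kept the call (adjusted p 0.0148 to 0.0298). The WT change was log2 0.13 ± 0.16 SE (adjusted p = 1.00). The difference between the 2 effects, log2 0.85 (95% interval 0.36 to 1.33), did not pass over all genes (edgeR adjusted p = 0.340). It passed when a term for the deepest library of each group was added (adjusted p = 0.0163), a fit in which genes of every kind were called more often.

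ATP6V1H, the H subunit of the cytosolic V1 sector, needed for pump activity, was at 41.8, 30.4 and 20.8 CPM in S222A uninduced and 54.7, 60.0 and 54.6 CPM in S222A induced libraries. All 3 induced libraries were above all 3 uninduced ones, whose lowest value came from replicate 3. The change was 1.74-fold (95% interval 1.28 to 2.37; log2 0.80 ± 0.21 SE; edgeR adjusted p = 0.0464). The call was lost in 5 of 6 fits that left out 1 library (adjusted p up to 0.172, without S222A uninduced replicate 2), and without replicate 3 it was log2 0.62 (adjusted p = 0.0961). A fit on these 6 libraries alone also ended the call (adjusted p = 0.0885). The change was log2 0.38 between the deepest libraries and 1.10 among the others (adjusted p = 0.0115). The uninduced WT libraries held 40.4, 38.8 and 38.4 CPM of ATP6V1H against 39.02, 30.3 and 36.8 CPM in the induced ones, and the difference of the effects was log2 0.92 (95% interval 0.28 to 1.55, edgeR adjusted p = 0.529).

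**Figure D2:**
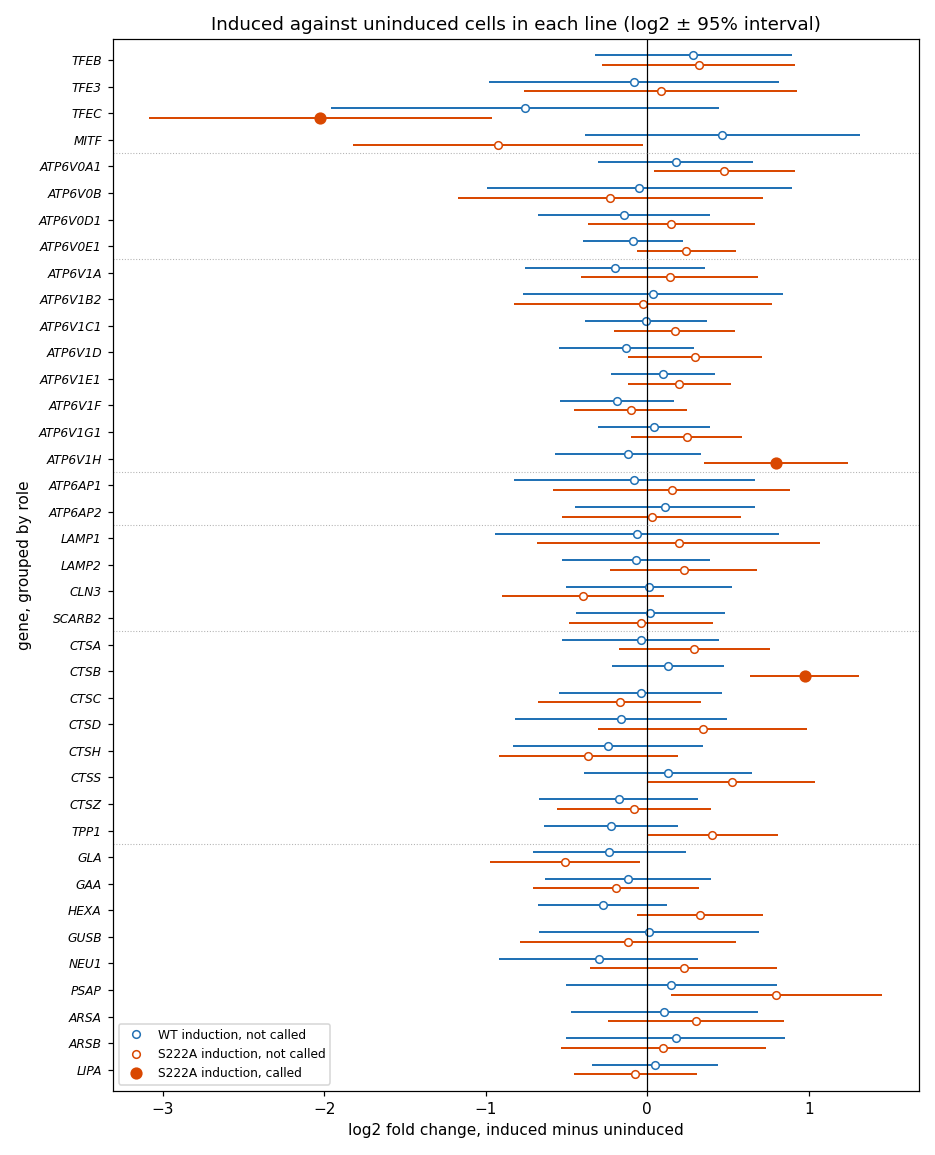
Log2 fold change on induction, induced minus uninduced, with its 95% interval for the 39 genes tested, in the WT line (blue) and the S222A line (orange), grouped by role; filled points passed the test. CTSB and ATP6V1H lie to the right and TFEC to the left of 0 in the S222A line, and no WT point is filled.

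The remaining V-ATPase genes did not pass on either induction. In the membrane sector, ATP6V0A1 (the a1 subunit, part of the proton path) changed by log2 0.48 ± 0.20 SE on S222A induction (edgeR adjusted p = 0.220), while ATP6V0B, ATP6V0D1 and ATP6V0E1 lay between log2 -0.23 and 0.24. In the V1 sector the 7 genes other than ATP6V1H lay between log2 -0.10 (ATP6V1F) and 0.30 (ATP6V1D). The accessory proteins ATP6AP1 and ATP6AP2 were at log2 0.15 and 0.03. Over the 14 V-ATPase genes tested the S222A median was log2 0.16, with 11 above 0 and 3 below, and the WT median was -0.06, with 5 above and 9 below. ATP6V0C, the gene of the proteolipid ring, had 1 count over all 12 libraries and was not tested. In GENCODE 29 (GRCh38), 72.1% of its 1498 exonic bases are also annotated, on the same strand, to the genes AC093525.1 and AC093525.2, and the part of this in the low count was not tested. Members with over 10% of their exonic bases shared with another gene were also CTSD (52.7% on either strand), CLN3 (30.9%), CTSA (28.5%), ATP6V1F (23.7%), HEXA (16.3%) and TPP1 (14.4%). Their counts are less certain because the strand setting of the counting is not given in the sources used here. ATP6V0A1 shared 1.31%, 6 other members shared under 10%, and 27 of the 41, among them CTSB, ATP6V1H, CTSZ and TFEC, shared none.

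Among the membrane proteins, LAMP1 and LAMP2, the major glycoproteins of the lysosomal membrane, were at log2 0.19 and 0.23 on S222A induction (edgeR adjusted p = 0.864 and 0.639). LAMP1 ranged from 250 to 609 CPM over the WT libraries and from 381 to 857 CPM over the S222A libraries, and in each of the 4 groups its highest value was that of the deepest library. SCARB2, the receptor that carries glucocerebrosidase to lysosomes, stood at log2 -0.04, and CLN3, a membrane protein mutated in Batten disease, at -0.40 ± 0.23 SE (adjusted p = 0.391). MCOLN1, the lysosomal calcium channel and a known TFEB target, had 0 to 32 counts per library (0 to 4.38 CPM), did not pass the filter and was not tested.

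Of the other 7 peptidases, 4 had a positive and 3 a negative log2 value on S222A induction, and none passed. CTSS (cathepsin S, which processes the invariant chain) was at log2 0.52 (edgeR adjusted p = 0.258), TPP1 (tripeptidyl peptidase 1) at 0.40 (0.265), CTSD at 0.34 (0.613) and CTSA, the protective protein of neuraminidase, at 0.29 (0.533). CTSZ, CTSC and CTSH were at -0.08, -0.17 and -0.36. TPP1 passed without S222A uninduced replicate 3 (log2 0.65, adjusted p = 0.0449), where that library held 163 CPM against 102 and 99.3 CPM in the other uninduced libraries and 153 to 161 CPM after induction.

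Among the glycosidases, sulfatases, lipases and activators, 0 of 9 passed, with a median of log2 0.10. PSAP, the precursor of the saposins that activate sphingolipid hydrolases, was at 217, 147 and 184 CPM in S222A uninduced and 275, 269 and 412 CPM in S222A induced libraries. The groups did not overlap, and the change of log2 0.80 ± 0.30 SE did not pass (edgeR adjusted p = 0.165). Without the deepest library of each group it was log2 0.73 and passed (adjusted p = 0.0294). In WT cells PSAP was at 133, 187 and 100.1 CPM uninduced and 226, 103 and 132 CPM induced, with the deepest library highest in both groups. GLA (alpha-galactosidase A) was at log2 -0.51 ± 0.22 SE on S222A induction (adjusted p = 0.217). HEXA, a subunit of beta-hexosaminidase, was at 53.2, 53.8 and 46.0 CPM uninduced and 61.0, 59.3 and 72.8 CPM induced, without overlap (log2 0.33, adjusted p = 0.364). The others, GAA, GUSB, NEU1, ARSA, ARSB and LIPA, lay between log2 -0.20 and 0.30.

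The difference between the 2 induction effects passed for 0 of the 39 genes, where 9 of all genes did (0.0784%; 0.0523% higher and 0.0261% lower). DESeq2 also called 0 members. At an unadjusted p under 0.05 there were 4 members with the larger effect in S222A cells (ATP6V1H, CTSB, TPP1 and HEXA) and 1 with the lower (MITF), where all genes had 3.63% and 3.04%. The median was log2 0.18, against -0.01 over all genes.

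Between the induced lines 727 genes were called (6.34%), 428 of them higher in S222A (3.73%) and 299 lower (2.61%). Of the 39 members, 4 were called, all higher in S222A: ATP6V0A1, CTSB, TPP1 and CTSZ. The median over the members was log2 0.39, against 0.00 over all genes, with 34 above 0 and 5 below. At an unadjusted p under 0.05 there were 15 higher and 1 lower, where all genes had 11.2% and 9.96%. For 16 members every S222A induced library was above every WT induced library, and for 1 (MITF) every one was below, where 15.2% and 12.9% of all genes were so. The comparison shares its S222A and WT induced libraries with the induction effects, so the values are given side by side and not as further evidence.

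ATP6V0A1 was the member with the largest difference between the induced lines (GENCODE 29, GRCh38, chr17:42458844-42522611, plus strand). It was at 16.1, 20.1 and 13.1 CPM in WT uninduced, 19.4, 20.2 and 17.4 in WT induced, 39.4, 32.4 and 50.4 in S222A uninduced and 54.0, 49.3 and 63.3 CPM in S222A induced libraries. All 6 S222A libraries were above all 6 WT libraries. The difference was 2.95-fold between the induced lines (95% interval 2.15 to 4.06; log2 1.56 ± 0.21 SE; edgeR adjusted p = 0.00108) and 2.39-fold between the uninduced lines (95% interval 1.73 to 3.31; log2 1.26 ± 0.22 SE; adjusted p = 0.0225). The induced call held in all 6 fits that left out 1 library. The uninduced call was lost in 4 of 6, with adjusted p up to 0.159 (without WT uninduced replicate 1), 0.150 without WT uninduced replicate 3, 0.102 without S222A uninduced replicate 1 and 0.0733 without S222A uninduced replicate 3, and it was also lost in a fit on the 6 uninduced libraries alone (0.205).

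CTSB was 2.48-fold higher in S222A than in WT induced cells (log2 1.31 ± 0.16 SE, edgeR adjusted p = 0.000451). Its uninduced S222A libraries (58.0 to 70.2 CPM) were also above the uninduced WT libraries (40.4 to 51.6 CPM), a difference of log2 0.47 that did not pass (adjusted p = 0.468). TPP1 (chr11:6612763-6619485, minus strand) was 2.41-fold higher between the induced lines (log2 1.27 ± 0.19 SE, edgeR adjusted p = 0.00227). It was at 161, 161 and 153 CPM in S222A induced and 72.3, 57.2 and 65.3 CPM in WT induced libraries, without overlap. Uninduced, it was at 102, 99.3 and 163 CPM in S222A and 85.8, 71.5 and 73.1 CPM in WT cells, at log2 0.64 (adjusted p = 0.323), and 0.40 without S222A uninduced replicate 3 (adjusted p = 0.694). Both calls between the induced lines held in all 6 fits that left out 1 library.

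CTSZ, cathepsin Z, a carboxypeptidase (chr20:58995185-59007247, minus strand), was at 163, 165 and 158 CPM in S222A induced and 82.4, 86.3 and 62.6 CPM in WT induced libraries. The groups did not overlap, and the difference was 2.12-fold (log2 1.08 ± 0.23 SE, edgeR adjusted p = 0.0146). The call was lost without WT induced replicate 3 (adjusted p = 0.0848), S222A induced replicate 1 (0.0514) or S222A induced replicate 2 (0.0559). Uninduced, CTSZ was at 159, 132 and 229 CPM in S222A and 88.8, 106 and 64.1 CPM in WT cells, again without overlap, at log2 0.99 (adjusted p = 0.114). Without S222A uninduced replicate 3, the highest, this was log2 0.75 (adjusted p = 0.378). On induction CTSZ stood at log2 -0.18 in WT and -0.08 in S222A cells, and neither induction effect passed.

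**Figure D3:**
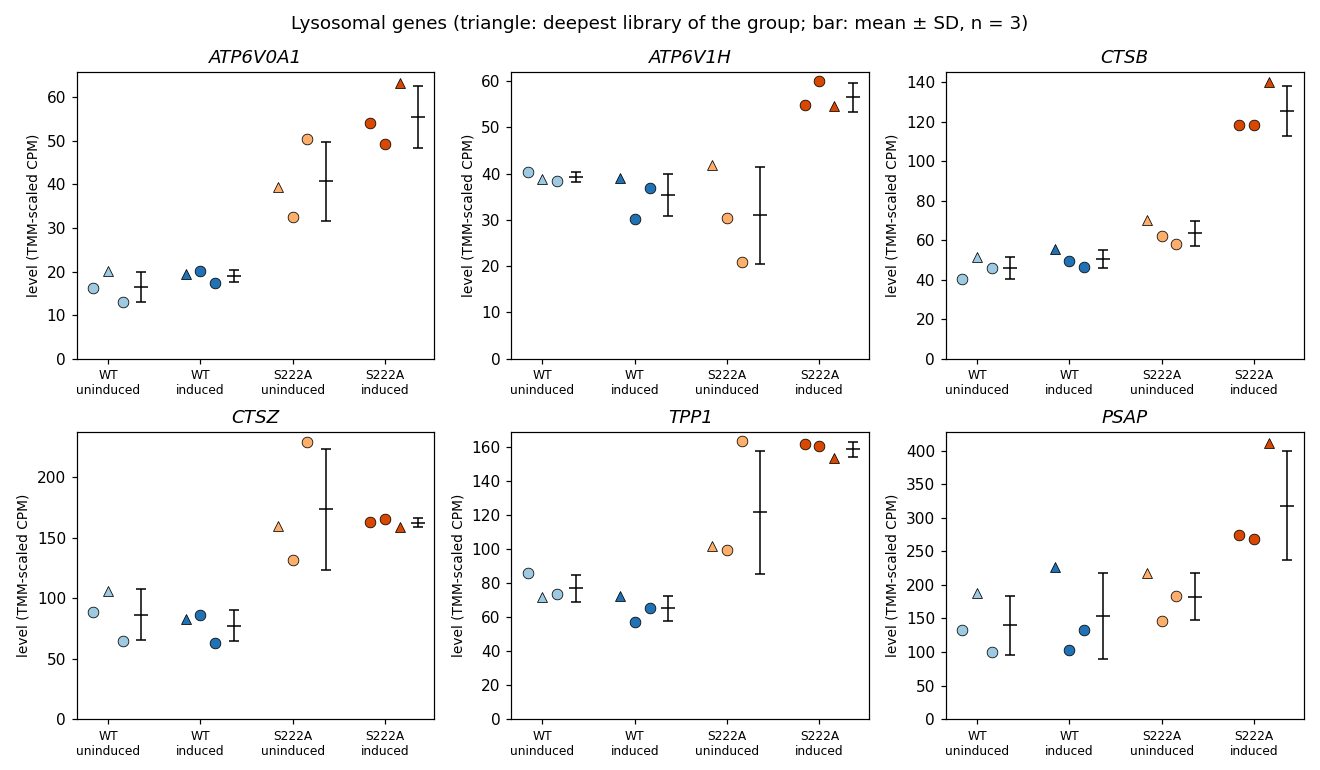
Levels of the 5 lysosomal genes called in any comparison and of PSAP in each library, in TMM-scaled CPM on linear axes from 0; triangles mark the deepest library of a group and bars the mean ± SD (n = 3). ATP6V0A1 is at 32.4 CPM or more in every S222A library and at 20.2 CPM or less in every WT library, and all 3 CTSB values of S222A induced cells lie above the other 9.

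Besides MITF, just outside the threshold between the induced lines lay PSAP (log2 1.03, edgeR adjusted p = 0.0620), CTSH (cathepsin H, an aminopeptidase; 0.88, 0.0682), LAMP2 (0.70, 0.0694), ATP6V0E1 (0.45, 0.0805), ATP6V1H (0.65, 0.0813) and HEXA (0.56, 0.0910). For each of these 6 the S222A induced libraries were all above the WT induced libraries. LAMP2 was at 401, 414 and 482 CPM in S222A induced and 348, 221.96 and 225 CPM in WT induced libraries, and at 422, 352 and 333 CPM in S222A uninduced and 271, 346 and 219.8 CPM in WT uninduced libraries. CTSH was at 40.9, 45.7 and 33.4 CPM in S222A induced and 20.5, 20.2 and 23.9 CPM in WT induced libraries. Uninduced it was at 34.4, 49.2 and 76.7 CPM in S222A and 29.3, 26.8 and 20.8 CPM in WT cells, at log2 1.00 (adjusted p = 0.227), and 0.69 without S222A uninduced replicate 3 (adjusted p = 0.525).

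All 14 V-ATPase genes tested had a positive value between the induced lines, from log2 0.13 (ATP6V0B) to 1.56 (ATP6V0A1), with a median of 0.32, and only ATP6V0A1 passed. All 14 were also positive under both other scalings tried, but ATP6V0B reached log2 -0.20 and ATP6V1B2 -0.06 without S222A induced replicate 3. The 4 other V-ATPase subunits tested, which are not members, did not share this direction. Between the induced lines 2 of them lay above and 2 below 0 (log2 -0.68 to 0.16, median 0.004). The peptidases had the highest median of the roles (0.80, 3 of 8 called), followed by the accessory V-ATPase proteins (0.58, 0 of 2), the glycosidases and related genes (0.51, 0 of 9) and the membrane proteins (0.50, 0 of 4). Members below 0 were CTSC, CLN3, GLA, GAA and MITF. Uninduced, 45 genes were called between the lines (0.392%), and 1 of the 39 members (ATP6V0A1). At an unadjusted p under 0.05 there were 7 members higher and 0 lower, where all genes had 4.17% and 3.3%. The median was log2 0.26, against 0.00 over all genes, with 32 above 0 and 7 below, and 7 members had S222A libraries all above WT libraries (6.24% of all genes; 6.10% were all below, as were 0 members): TFEC, ATP6V0A1, SCARB2, CTSB, CTSH, CTSZ and TPP1.

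**Figure D4:**
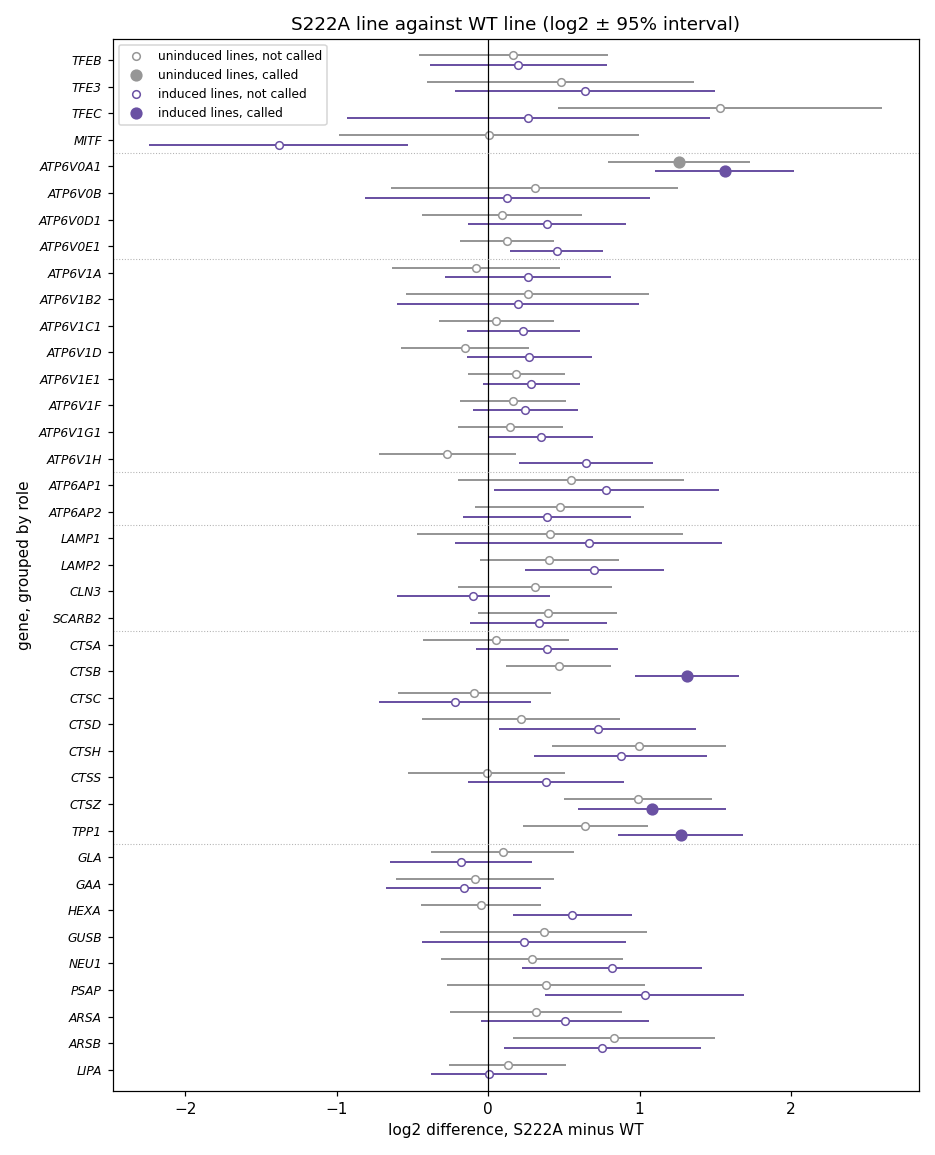
Log2 difference S222A minus WT with its 95% interval for the 39 genes tested, between uninduced lines (grey) and induced lines (purple), grouped by role; filled points passed the test. Most points lie to the right of 0, and ATP6V0A1 is filled in both comparisons.

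The members moved with depth as well as with group. A term for the deepest library of each group was called as higher for 16 of 39 members (41.0%) and as lower for 2 (5.13%; ATP6V1C1 and CTSS), against 19.3% and 19.2% of all genes. Its median was log2 0.16, against 0.00 over all genes. ATP6V0B was 2.04-fold, LAMP1 1.94-fold, ATP6V1B2 1.73-fold, TFE3 1.72-fold and ATP6AP1 1.71-fold higher in the deepest libraries than in the others of their groups. Summed over the 39 members, the level was 2618 to 3983 CPM in WT uninduced, 2672 to 4012 in WT induced, 3677 to 4610 in S222A uninduced and 4188 to 5246 CPM in S222A induced libraries. The sum was highest in the deepest library of every group, and the members held 0.272% to 0.501% of all counts. Among the libraries other than the deepest, the difference between the induced lines was log2 1.4998 for ATP6V0A1, 1.32 for CTSB, 1.37 for TPP1 and 1.19 for CTSZ, and between the deepest libraries it was 1.68, 1.33, 1.08 and 0.94. In bulk RNA, a changed share of cells of a type and a changed amount of RNA per cell cannot be told apart.

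**Figure D5:**
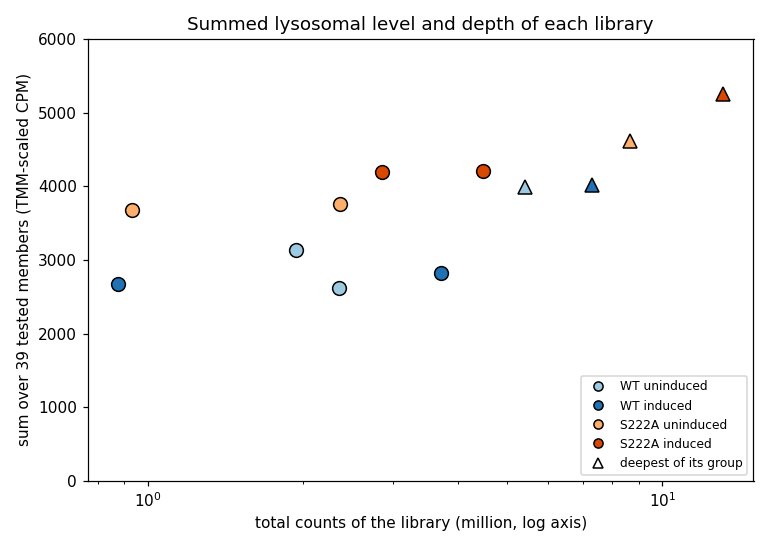
Summed level of the 39 genes tested (TMM-scaled CPM, linear axis from 0) against the total counts of each library (log axis), by group; triangles mark the deepest library of each group. The deepest library has the highest sum in each of the 4 groups, from 3983 CPM in WT uninduced to 5246 CPM in S222A induced cells.

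With a CACGTG in its RefSeq window, a tested member had a median of log2 0.17 on S222A induction (10 genes), and without it -0.06 (18 genes). Between the induced lines these medians were 0.39 and 0.28, and on WT induction -0.06 and -0.06. No gene with the motif was called, and the 2 sets were not tested against each other. Members without a window, CTSB and ATP6V1H among them, are in neither set.

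Other lysosomal genes were taken from 6 lists that do not hold the 41 members. On WT induction 0 of their 122 tested genes were called by edgeR or by DESeq2, and 1 was higher at an unadjusted p under 0.05. On S222A induction, of 32 other hydrolases and activators tested, 2 rose and 1 fell, with a median of log2 0.29. Of all genes 2.80% rose and 1.66% fell, and the counts of the lists are given beside these shares and are not read as a result about any list. CTSG, cathepsin G, a serine protease of myeloid granules, fell from 733, 561 and 560 CPM to 169, 198 and 219 CPM (log2 -1.66 ± 0.18 SE, edgeR adjusted p = 0.000340). DESeq2 also called CTSG higher in S222A between the uninduced lines (log2 0.80, adjusted p = 0.00703). The difference of its induction effects was called by DESeq2 (log2 -1.33, adjusted p = 0.000690). In edgeR that difference passed without the filter (adjusted p = 0.0182) and with a term for the deepest libraries (0.000277). The main edgeR fit called neither. CTSO, cathepsin O, rose from 8.17, 9.85 and 2.19 CPM to 20.4, 23.6 and 18.4 CPM (log2 1.46 ± 0.33 SE, edgeR adjusted p = 0.0259). The 2.19 CPM, in S222A uninduced replicate 3, lay under the floor of 3 counts. DNASE2, the acid DNase of lysosomes, rose from 1.80, 1.23 and 0 CPM to 8.66, 5.57 and 8.21 CPM (log2 2.41 ± 0.53 SE, adjusted p = 0.0223), with 15, 3 and 0 counts before induction. The groups of these 3 genes did not overlap. CTSG kept its call in all 6 fits that left out 1 library, and CTSO and DNASE2 lost it in 5 of 6 (adjusted p up to 0.0994 and 0.101, the first without S222A induced replicate 2 and the second without S222A uninduced replicate 2). DNASE2 also stood at log2 1.55 on WT induction and at 2.02 for S222A minus WT between the uninduced lines. Neither of these values passed in edgeR.

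Of 20 other lysosomal membrane proteins, 1 rose on S222A induction (median log2 0.02). CD164, a sialomucin, went from 104, 103 and 69.0 CPM to 176, 193 and 191 CPM (log2 1.00 ± 0.17 SE, edgeR adjusted p = 0.00460), while the WT libraries stood at 139 to 172 CPM. It kept its call in all 6 fits that left out 1 library. Between the uninduced lines DESeq2 called CD164 lower in S222A (log2 -0.68, adjusted p = 0.0118), as did edgeR with a term for the deepest libraries (-0.67, 0.0106). With that term the difference of its induction effects also passed (log2 0.82, edgeR adjusted p = 0.0341). The main edgeR fit called neither. Of 25 sorting genes 1 rose (median 0.06): SORT1, sortilin, a receptor that carries hydrolases from the Golgi, went from 18.7, 20.5 and 10.95 CPM to 40.5, 35.9 and 31.4 CPM (log2 1.03 ± 0.23 SE, adjusted p = 0.0259). Its call was lost in all 6 such fits (adjusted p 0.0512 to 0.110), and it was log2 0.87 (adjusted p = 0.0562) without S222A uninduced replicate 3. Of 18 autophagy genes 2 rose (median 0.23, with 16 above 0): MAP1LC3B (log2 0.98 ± 0.22 SE, adjusted p = 0.0278) and GABARAPL1 (log2 1.13 ± 0.29 SE, adjusted p = 0.0440), both ATG8-type proteins of the autophagosome membrane. MAP1LC3B went from 24.7, 26.7 and 14.2 CPM to 45.0, 52.0 and 38.7 CPM, and GABARAPL1 from 17.1, 11.9 and 13.1 CPM to 27.7, 22.7 and 43.2 CPM. Both calls were lost in 5 of 6 such fits, among them the one without S222A uninduced replicate 3, where MAP1LC3B was at log2 0.81 (adjusted p = 0.0566) and GABARAPL1 at 1.09 (0.103). Of 23 genes that control MiT/TFE factors through mTORC1 or calcineurin, 0 were called (median 0.19; 2 higher and 0 lower at an unadjusted p under 0.05, edgeR), and of 4 other V-ATPase subunits 0 (median -0.26; 0 at an unadjusted p under 0.05). Over the 6 lists, DESeq2 called 9 higher and 1 lower on S222A induction where edgeR called 6 and 1, among them 1 mTORC1 or calcineurin gene and 0 of the other V-ATPase subunits.

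Between the induced lines, where 3.73% of all genes were called higher and 2.61% lower, the same lists held 5 hydrolases higher in S222A of 32 tested (SMPD1, CTSO, DNASE2 and PLD3 among them), 1 membrane protein (CD63), 1 sorting gene (SORT1), 1 controller (PPP3CA, a catalytic subunit of calcineurin) and 2 autophagy genes (GABARAPL1 and ATG13), and 0 lower. SMPD1, acid sphingomyelinase, was at 15.6, 12.5 and 16.1 CPM in S222A induced and 6.58, 1.12 and 3.95 CPM in WT induced libraries (log2 1.65 ± 0.39 SE, edgeR adjusted p = 0.0243). The 1.12 CPM, in WT induced replicate 2, lay under the floor of 3 counts. CD63, a tetraspanin of lysosomes and exosomes, was at 547, 528 and 723 CPM in S222A induced and 410, 168 and 212 CPM in WT induced libraries (log2 1.17 ± 0.30 SE, adjusted p = 0.0368). PPP3CA was at 347 to 355 CPM in S222A induced and 213 to 242 CPM in WT induced libraries (log2 0.61 ± 0.15 SE, adjusted p = 0.0306). These list counts, such as 1 of 20, 1 of 25 and 1 of 23, are not read as results about the lists. Leaving out 1 library at a time ended the SMPD1 call in 4 of 6 fits, the CD63 call in 5 and the PPP3CA call in 6, with adjusted p up to 0.111, 0.161 and 0.101. It ended the PLD3 call in 5 fits, the CTSO call in 3, the ATG13 call in 2, and the SORT1 and DNASE2 calls in 1 each (adjusted p up to 0.155, 0.0701, 0.0694, 0.0559 and 0.0530), and the GABARAPL1 call in 0. SMPD1, PLD3, CD63, PPP3CA and ATG13 were singled out after their values were seen. Between the uninduced lines 0 of the 122 genes were called (edgeR; 11 higher and 2 lower at an unadjusted p under 0.05), while DESeq2 called 1 higher and 1 lower. In other edgeR fits CD63 was already higher in uninduced S222A cells. It passed without the filter (log2 0.85, adjusted p = 0.0202) and without the deepest library of each group (0.98, 0.00872). With a term for the deepest libraries CD63 (0.89, 0.00134) and PPP3CA (0.50, 0.0314) both passed.

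The monocyte and macrophage list summed to 19.2 to 31.9 CPM in WT uninduced, 18.0 to 27.4 in WT induced, 26.3 to 29.7 in S222A uninduced and 23.9 to 31.2 CPM in S222A induced libraries. These ranges overlap, and 2 of its 10 genes (CSF1R and FCGR1A) passed the filter, with 0 called in the S222A comparisons. Of the 7 myeloid line markers tested, 0 were called higher and 1 lower on S222A induction, with log2 values from -1.71 to 2.22. MPO, myeloperoxidase of granulocytic precursors, fell on S222A induction from 9.13, 4.92 and 7.67 CPM to 0.693, 3.34 and 2.31 CPM. The 0.693 CPM, in S222A induced replicate 1, lay under the floor of 3 counts. The change was log2 -1.71 ± 0.42 SE (edgeR adjusted p = 0.0377), a call lost in all 6 fits that left out 1 library. MPO was also lower in S222A than in WT induced libraries (log2 -2.01 ± 0.41 SE, edgeR adjusted p = 0.0124). That call was lost without WT induced replicate 3 (0.0576), without S222A induced replicate 3 (0.0525) and from the compared libraries alone (0.0530). The other 6 tested markers of that list were called neither on S222A induction nor between the induced lines. On WT induction MPO stood at log2 -0.96, and for S222A minus WT between the uninduced lines at -1.25, and neither passed. The uninduced difference passed with a term for the deepest libraries (log2 -1.27, edgeR adjusted p = 0.0327). The difference of the MPO induction effects was log2 -0.76 and did not pass, so its fall was not shown to differ between the lines. KIT, a receptor tyrosine kinase of progenitors, went from 1.80, 1.23 and 0 CPM to 5.20, 7.58 and 6.78 CPM on S222A induction (log2 2.22 ± 0.69 SE, edgeR adjusted p = 0.0869). FLT3, another such kinase, was at 71.4, 80.9 and 76.7 CPM before and 108, 111 and 101.3 CPM after induction (log2 0.49 ± 0.13 SE, adjusted p = 0.0588). Neither passed, although their groups did not overlap, and both were named after their values were seen. The 0 CPM of KIT, in S222A uninduced replicate 3, lay under the floor of 3 counts. The part of these marker values in the lysosomal values was not tested. Mitochondrially encoded RNA took 5.87% to 8.17% of counts in S222A uninduced and 7.004% to 8.80% in S222A induced libraries.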

How the data were processed

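RNA from OCI-AML2 clones was made into 12 libraries, 4 groups of 3. The labels' protocols name a TruSeq RNA kit. The authors deposited raw read counts per gene symbol in 1 table, with no normalization. The submitters' processing notes name STAR 2.4, HTSeq 0.6.1, DESeq2 and hg19, with no roles or order. The sources used here give no annotation release and no strand setting. The table's header runs 1 cell short, so columns were matched to libraries by the sample descriptions. The S222A columns carry the name MEF2C with no mention of the mutation.

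Counts were tested with edgeR 4.0.16 (R 4.3.3; TMM factors, filterByExpr with a minimum count of 10, robust quasi-likelihood F test, limma 3.58.1), all 12 libraries in 1 fit with a mean per group and 8 residual degrees of freedom. P-values were Benjamini-Hochberg adjusted over 11474 genes, which held 99.5% of counts, and called under 0.05. Of 55765 rows, 24318 had no count. The biological coefficient of variation was 24.8%. The SE is the absolute log2 fold change over the square root of F. The test was checked on simulated data. Intervals are 95%. The floor of 3 counts was 0.228 to 3.43 CPM per library and covers counting error only. Every pair of libraries within a group differed beyond sampling noise, so none was merged.

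The members and the 15 other lists (6 of lysosomal, sorting, control and autophagy genes, 9 of cell markers) were chosen with earlier results of these data known. Named were the 4 MiT/TFE factors, every member called in any comparison, in each role up to 4 members with the smallest adjusted p on S222A induction and 1 on WT induction, members that failed the filter, up to 4 genes of each other list called on S222A induction, and MEF2C. Other members are named to complete their role, or because they lay near the threshold, after their values were seen. The values of 1 gene of the other lists are not reported here. Promoter windows came from RefSeq (GRCh38.p14) and gene overlaps from GENCODE 29 (GRCh38). The files use hg19 and give no coordinates. Alternatives were other scalings, no filter, DESeq2 1.42.0, a replicate block, a term for or removal of the deepest libraries, only the libraries compared, and leaving out each library.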

Additional observations from a re-analysis of the deposited data

How the results depend on the processing

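The replicate numbers did not pair the libraries. Same-numbered libraries deviated from their group means with r from -0.53 to 0.64 (18 pairs), other-numbered ones with r from -0.62 to 0.76 (36 pairs). The deepest libraries did go together across groups: their pairs had r from 0.61 to 0.76, and all other pairs up to 0.47. The main fit held no term for this, and what sets these libraries apart besides depth was not tested. On WT induction 1 gene was called, against 0 with upper quartile factors, a replicate block, the compared libraries alone, the deepest libraries removed or any library left out, 2 without the filter, 4 by DESeq2 and 6 with a term for the deepest libraries. No member was called there under any of these. On S222A induction 511 genes became 811 by DESeq2, 235 with the replicate block, 2052 with the deepest-library term (1006 higher and 1046 lower, against 321 and 190) and 187 (without S222A induced replicate 2) to 329 (without S222A uninduced replicate 3) with 1 library left out. The 3 members called became 1 (CTSB) with the block or the compared libraries alone, 7 with the depth term and 1 to 2 with 1 library left out. For the difference of the effects, 9 genes became 22 without the filter, 36 by DESeq2, 0 with the block, 147 with the depth term and 0 to 4 with 1 library left out, and the 0 members became 1 (CTSB) with the depth term. Between the induced lines 727 genes became 350 with the block, 2480 with the depth term, 482 from the compared libraries alone and 249 (without WT induced replicate 3) to 582 (without WT induced replicate 1). The 4 members became 9 without the filter, 9 by DESeq2, 20 with the depth term, 11 without the deepest libraries and 3 to 6 with 1 library left out. Between the uninduced lines 45 genes became 91 without the filter, 83 by DESeq2, 22 with the block, 218 with the depth term, 9 from the compared libraries alone and 17 to 30 with 1 library left out. The 1 member became 2 without the filter, by DESeq2 or without the deepest libraries, 5 with the depth term, 0 with the block or the compared libraries alone, and 0 to 1 with 1 library left out.

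The members' median moved, with 1 library left out, from log2 -0.20 to 0.12 on WT induction, 0.025 to 0.25 on S222A induction, 0.035 to 0.35 for the difference, 0.32 to 0.53 between the induced and 0.12 to 0.39 between the uninduced lines. Of 4046 alternative values of single genes, 3650 kept their direction and side of the threshold, 114 lost and 72 gained a call, 210 without a call changed sign, and 0 called values reversed. The cause of these shifts was not tested. Smaller fits also hold fewer libraries and degrees of freedom, and the part of this was not tested either. Depth limits most the genes with few reads, such as TFEC with 1 to 52 counts per library.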
